A study of Homo sapiens with 8 samples.

Results

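The genes described are 39 genes of liver metabolism and detoxification, out of 40693 gene symbols in the tables. They were chosen by name, as enzymes, carriers and receptors that hepatocytes use, and all 39 were found, each on a single row. They were read in 8 RNA sequencing libraries of SW620 and SW480, established human colorectal adenocarcinoma lines that the labels place at Dukes' type C and type B. The libraries were 3 of SW620 with a short hairpin RNA against FOXA2 (shFOXA2), 3 of SW620 with a control hairpin (shNC), 1 of untreated SW620 and 1 of untreated SW480. The hairpins were expressed from a U6 promoter on a lentiviral vector that also carries a puromycin resistance gene and mCherry, and stable populations were selected with puromycin. The untreated libraries carried no hairpin. The shFOXA2 titles point to the first of the FOXA2 target sequences in the labels, and only SW620 received hairpins. Nothing in the labels tells separate cultures from repeat libraries of 1 culture, so the p-values below measure only the spread between these libraries, which may be technical.

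The liver uses these genes to oxidise drugs and steroids through cytochromes P450, to conjugate the products for excretion, to make bile acids from cholesterol, to release glucose during fasting, to break down aromatic amino acids and to turn ammonia into urea. Carriers such as SLCO1B1 and SLC10A1 bring bilirubin, drugs and bile acids into the hepatocyte, and hepcidin, the product of HAMP, sets iron export. FOXA2 is a pioneer factor that opens chromatin in endoderm and binds near many liver genes. The series title concerns reprogrammed transcription and liver metastasis of colorectal cancer, and the comparisons set FOXA2 depletion and the 2 lines against such genes.

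Total counts ran from 7478411 to 13076566 in the 6 hairpin libraries and were 95935348 in SW620 and 72323506 in SW480. A limit of 3 counts corresponds to 0.401 CPM (the count scaled to a common library total) in the shallowest library and 0.0313 CPM in the deepest. FOXA2 itself stood at 30.3, 29.3 and 22.2 CPM in shFOXA2 and at 52.5, 49.0 and 51.9 CPM in shNC, scaled by TMM, the trimmed mean of M-values. Of 12 colon epithelium markers, the keratins KRT8, KRT18 and KRT19 and the adhesion gene EPCAM were high in both lines, KRT8 with 299288 counts in SW620 and 218555 in SW480. Other colon markers differed between the lines: KRT20 had 801 counts in SW620 and 0 in SW480, the adhesion gene CEACAM5 had 1606 and 6, LGR5 had 2090 and 35, and GPA33 had 10 and 49. The colon transcription factor CDX2 had 510 counts in SW620 and 4150 in SW480, and CDX1 had 2 and 0. Liver secretory genes were mostly near 0, with TTR and FGB at 0 counts in all 8 libraries, while SERPINA1 had 1683 counts in SW620 and 5193 in SW480. Library shFOXA2 replicate 1 stood apart from the other hairpin libraries for some of the genes, so each result that rests on it is given with and without it.

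Most of the 39 genes were at or near the detection limit. Raw counts of untreated and hairpin libraries differ first of all in depth, so no change between those libraries is read from them. Of them, 8 were silent, with at most 3 counts in every library, and another 15 were too low in the hairpin libraries to be tested there. The remaining 16 passed the expression filter, as did 16100 of all 40693 gene symbols, so most symbols did not pass it either. OTC, which makes citrulline in the mitochondrial urea cycle, the steroid sulfotransferase SULT2A1 and the hepatic uptake carrier SLCO1B1 had 0 counts in all 8 libraries. The other silent genes were CYP7A1, the rate-limiting enzyme of bile acid synthesis, the glucuronosyltransferase UGT2B7, the drug-metabolising CYP2C19 and the alcohol dehydrogenases ADH4 and ADH6. In a library at 0 counts, a level of up to that library's 3-count limit would not be detectable.

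**Figure D1:**
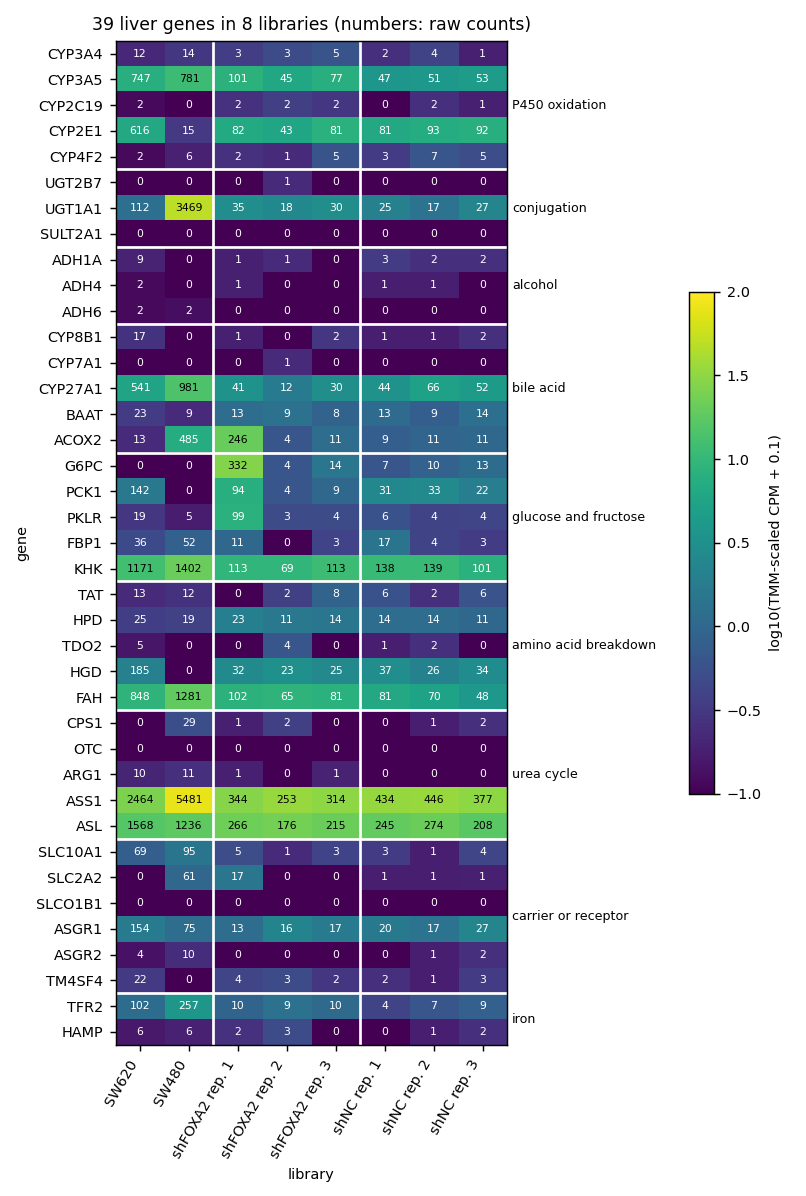
Levels of the 39 liver genes (rows, grouped by role) in the 8 libraries (columns). Colour gives log10 of TMM-scaled CPM plus 0.1 and the printed numbers are raw counts. ASS1 and ASL were high in every library, and G6PC, ACOX2 and PKLR were bright in shFOXA2 replicate 1 among the hairpin libraries.

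Levels of different genes were compared per length, with the authors' deposited RPKM (counts scaled by gene length and by the library's total). ASS1, argininosuccinate synthase, was the highest of the 39 genes in each library, at 10.2 ± 0.874 RPKM in shFOXA2 and 10.8 ± 0.562 RPKM in shNC (SD, n = 3 each), 8.42 RPKM in SW620 and 24.9 RPKM in SW480. ASL, argininosuccinate lyase, followed in SW620 at 5.12 RPKM, with 5.35 RPKM in SW480, where KHK and UGT1A1 lay above it. KHK, ketohexokinase, which phosphorylates fructose, had 3.25 ± 0.376 RPKM in shFOXA2 and 3.23 ± 0.439 RPKM in shNC, which differed by less than their spread. At least 1 RPKM was reached by 10, 5 and 6 of the 39 genes in shFOXA2 replicates 1 to 3, by 4 in each shNC library, by 6 in SW620 and by 8 in SW480.

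The urea cycle was split. ASS1 and ASL, the pair that makes arginine from citrulline and aspartate, were the highest of its members. CPS1, which feeds ammonia into the cycle, had 0 counts in SW620 and 29 in SW480, and at most 2 in each hairpin library. ARG1, liver arginase, had 10 counts in SW620, 11 in SW480 and at most 1 in each hairpin library. So the enzymes that enter and close the cycle in liver were at 0.077 RPKM or less in both untreated lines, as was OTC at 0.

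Hairpin libraries were compared, 3 against 3, with edgeR's quasi-likelihood test and Benjamini-Hochberg adjustment over all 16100 tested genes. For FOXA2 itself the log2 fold change was -0.91 (SE 0.09) with an adjusted p of 6.88e-10. Of the 16 liver genes tested, 3 were called higher in shFOXA2 (CYP3A5, FAH and ASL) and 1 lower (CYP27A1), which is 25%, beside 39% of all tested genes called (19.2% higher and 19.8% lower). The share among the liver genes was not above this background. Their median log2 fold change was 0.42, against 0.01 over all tested genes, and 0.15 without shFOXA2 replicate 1. In 6 of the 16, all shFOXA2 libraries lay above all shNC libraries, and in 0 they all lay below. TFR2, 1 of these 6, passed the expression filter only through the shFOXA2 libraries, so its place there is not independent of its direction. Over all tested genes the groups did not overlap in 24.2% as higher and 24.5% as lower. Markers of other cell types moved with the hairpin in places. Of 7 tested fibroblast and mesenchyme markers, 3 were higher and 1 lower (4 and 1 without shFOXA2 replicate 1). Of 6 tested leukocyte markers, 3 were higher (CD4, LYZ and GZMB), with leukocyte sums of 32.4 to 40.5 CPM in shFOXA2 and 22.3 to 28.3 CPM in shNC. GZMB, with 15, 13 and 20 counts in shFOXA2 and 4, 1 and 1 in shNC, passed the expression filter only through the shFOXA2 libraries. Its call is therefore not independent of its direction. CD3E and MS4A1 had 0 counts in every hairpin library. The part of these markers in the results was not tested. Fewer cells expressing a gene and less RNA per cell cannot be told apart in bulk libraries.

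CYP3A5 is a cytochrome P450 of liver and intestine that oxidises drugs and steroids. It had 8.45, 6.11 and 7.71 CPM in shFOXA2 replicates 1 to 3, against 3.66, 3.92 and 4.31 CPM in shNC. The groups did not overlap. The log2 fold change was 0.92 (SE 0.18, adjusted p = 5.07e-05 by edgeR). Untreated SW620 had 747 counts and SW480 781, and with depth taken into account CYP3A5 was 1.46-fold higher in SW480 (1.32 to 1.62, exact 95% interval for counting error).

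CYP3A4, the main drug-oxidising P450 of adult liver and a close neighbour of CYP3A5 on chromosome 7, had 1 to 5 counts in the hairpin libraries, 12 in SW620 and 14 in SW480. The pair is shown with its promoters because one was read and called and the other was nearly silent. Both are from RefSeq (GRCh38.p14, minus strand), run from 250 bases before to 50 after the gene start, and lie at chr7:99679947-99680246 for CYP3A5 and chr7:99784135-99784434 for CYP3A4. Capitals mark the motifs described next.
CYP3A5: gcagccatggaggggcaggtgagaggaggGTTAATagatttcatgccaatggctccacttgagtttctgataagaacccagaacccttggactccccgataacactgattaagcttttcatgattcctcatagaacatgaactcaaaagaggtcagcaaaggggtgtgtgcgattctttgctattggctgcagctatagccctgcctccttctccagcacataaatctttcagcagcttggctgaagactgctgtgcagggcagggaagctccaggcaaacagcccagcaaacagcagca
CYP3A4: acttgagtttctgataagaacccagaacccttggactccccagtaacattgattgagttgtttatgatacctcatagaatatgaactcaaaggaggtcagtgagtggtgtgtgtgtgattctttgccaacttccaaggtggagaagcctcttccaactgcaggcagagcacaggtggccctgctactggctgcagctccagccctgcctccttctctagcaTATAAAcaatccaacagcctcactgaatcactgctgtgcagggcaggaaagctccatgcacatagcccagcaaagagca

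In a global alignment, 207 of 241 aligned bases of these windows were identical (85.9%). The windows were searched on both strands for the FOXA motifs TGTTTAC and TATTTAC, the HNF4 motif CAAAGTCCA, the HNF1 core GTTAAT and the TATA box TATAAA. The TATA box was found 29 bases before the start of CYP3A4, and GTTAAT was found 221 bases before the start of CYP3A5. Promoter windows were in the table for 29 of the 39 genes. Of these 29 genes, 12 hold TATAAA and 6 hold GTTAAT in a window (41.4% and 20.7%, counting a gene with several windows once). Over all 35116 windows the shares were 11.5% and 6.88%. These shares count a match at any place and on either strand. TATAAA lay 29 to 31 bases before the start in CYP3A4, CYP2C19, CYP2E1, G6PC, ARG1 and TM4SF4. In TDO2, OTC, ADH4, UGT1A1, BAAT and SLCO1B1 it lay 88 to 238 bases before, and in ADH4, UGT1A1 and SLCO1B1 on the opposite strand. Neither FOXA motif was found in the 29 genes' windows, where 5.97% of all windows hold one, and CAAAGTCCA was not found either (0.384% of all windows).

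FAH, fumarylacetoacetase, carries out the last step of tyrosine breakdown. It had 8.53, 8.83 and 8.11 CPM in shFOXA2, against 6.30, 5.39 and 3.91 CPM in shNC. The groups did not overlap, and the shNC libraries spread more widely. The log2 fold change was 0.70 (SE 0.17, adjusted p = 0.000922 by edgeR). HPD, which acts earlier in the same pathway, had 1.92, 1.49 and 1.40 CPM in shFOXA2 and 1.09, 1.08 and 0.895 CPM in shNC. The groups did not overlap, and the difference of 0.67 on the log2 scale did not pass (SE 0.34, adjusted p = 0.124). HGD, the step between them, had 2.77 ± 0.320 CPM in shFOXA2 and 2.55 ± 0.479 CPM in shNC (SD, n = 3 each), and the groups overlapped (log2 fold change 0.11, SE 0.25). TAT, which opens the pathway, had 0 to 8 counts in the hairpin libraries, and the tryptophan dioxygenase TDO2 had at most 5 counts in any of the 8 libraries.

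ASL had 22.2, 23.9 and 21.5 CPM in shFOXA2, against 19.1, 21.1 and 16.9 CPM in shNC. The groups lay close together without overlap. The log2 fold change was 0.24 (SE 0.10, adjusted p = 0.0449 by edgeR). ASL no longer passed when shFOXA2 replicate 1 (adjusted p = 0.0823), 2 (0.154) or 3 (0.0674) or shNC replicate 1 (0.0854) or 3 (0.250) was left out. ASS1 had 31.5 ± 2.80 CPM in shFOXA2 and 32.9 ± 1.96 CPM in shNC (SD, n = 3 each), a difference within the spread.

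CYP27A1, the mitochondrial sterol hydroxylase of bile acid synthesis, had 3.43, 1.63 and 3.00 CPM in shFOXA2, against 3.43, 5.08 and 4.23 CPM in shNC. Replicate 1 of both groups had nearly the same value, and the groups met there. The log2 fold change was -0.61 (SE 0.24, adjusted p = 0.0370 by edgeR), and -0.82 (adjusted p = 0.0150) without shFOXA2 replicate 1. CYP27A1 no longer passed when shFOXA2 replicate 2 (adjusted p = 0.208) or 3 (0.0606) or shNC replicate 2 (0.183) or 3 (0.0785) was left out. Two-sided exact permutation tests on single genes cannot go below p = 0.1 with 3 against 3 libraries.

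**Figure D2:**
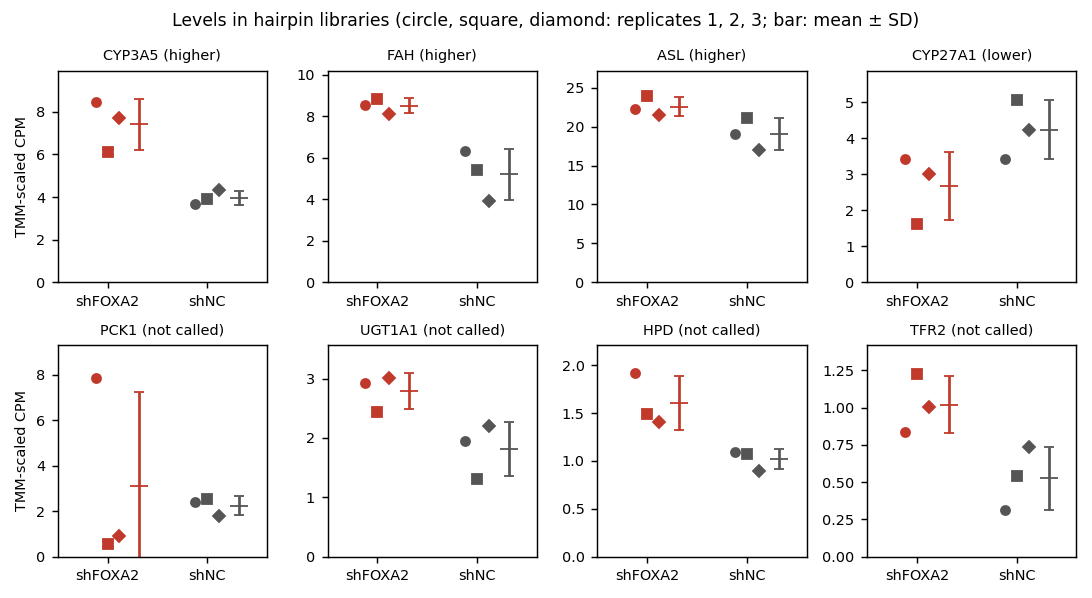
TMM-scaled CPM of 8 liver genes in each shFOXA2 and shNC library (symbols for replicates 1 to 3), with mean ± SD. CYP3A5, FAH and ASL lay higher in all shFOXA2 libraries, as did UGT1A1, HPD and TFR2, which were not called. PCK1 was high in shFOXA2 replicate 1 (7.86 CPM) and below all shNC libraries in replicates 2 and 3.

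Among the other conjugation and iron genes, levels were low. UGT1A1, which glucuronidates bilirubin, had 2.93, 2.44 and 3.00 CPM in shFOXA2 and 1.95, 1.31 and 2.20 CPM in shNC. The groups did not overlap, and the difference of 0.63 on the log2 scale did not pass (SE 0.27, adjusted p = 0.0553 by edgeR). It passed without shNC replicate 3 (0.79, adjusted p = 0.0420). UGT1A1 shares its last exons with 8 other genes of the UGT1A locus, and their counts followed it closely, so reads cannot be assigned to one of them with certainty. TFR2, a transferrin receptor that takes part in hepcidin control, had 10, 9 and 10 counts in shFOXA2 and 4, 7 and 9 in shNC. It entered the test only through the shFOXA2 libraries, and its difference of 0.91 on the log2 scale was not called (SE 0.48, adjusted p = 0.130 by edgeR). HAMP had at most 3 counts in each hairpin library and 6 in each untreated line.

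CYP2E1, which oxidises ethanol, had 6.94 ± 1.14 CPM in shFOXA2 and 6.98 ± 0.610 CPM in shNC (SD, n = 3 each), at a log2 fold change of 0.00 (SE 0.16). BAAT, which joins bile acids to glycine or taurine, had 8 to 13 counts in shFOXA2 and 9 to 14 in shNC. ASGR1, a subunit of the asialoglycoprotein receptor that clears desialylated proteins, had 13 to 17 counts in shFOXA2 and 17 to 27 in shNC, and its partner ASGR2 had 0 in each shFOXA2 library and at most 2 in shNC. KHK, BAAT and ASGR1 did not pass, with log2 fold changes between -0.08 and 0.12.

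G6PC, PKLR and ACOX2 were high in shFOXA2 replicate 1 alone among the hairpin libraries. G6PC, the phosphatase that releases free glucose, had 332 counts in shFOXA2 replicate 1, 4 and 14 in replicates 2 and 3, and 7, 10 and 13 in the shNC libraries. ACOX2, a peroxisomal oxidase that shortens bile acid precursors, had 246, 4 and 11 counts in shFOXA2 and 9, 11 and 11 in shNC. PKLR, the liver pyruvate kinase, had 99, 3 and 4 counts in shFOXA2 and 6, 4 and 4 in shNC. On the CPM scale, replicates 2 and 3 of shFOXA2 had 0.543 and 1.40 CPM of G6PC, against 0.545 to 1.06 CPM in shNC, and 0.543 and 1.10 CPM of ACOX2, against 0.701 to 0.895 CPM in shNC. For both genes replicate 2 lay below and replicate 3 above all shNC libraries. PKLR had 0.407 and 0.401 CPM there, within the 0.308 to 0.467 CPM of shNC. Their CPM in shFOXA2 replicate 1 was 19.8, 18.7 and 17.7 times the highest of the other 5 hairpin libraries. The glucose carrier SLC2A2 had 17, 0 and 0 counts in shFOXA2 and 1 in each shNC library.

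The promoter of G6PC, where this library's excess was largest among the 39 genes, lies at chr17:42900549-42900848 on the plus strand (RefSeq, GRCh38.p14, listed there as G6PC1), with GTTAAT 226 and TATAAA 29 bases before the start in capitals.
G6PC: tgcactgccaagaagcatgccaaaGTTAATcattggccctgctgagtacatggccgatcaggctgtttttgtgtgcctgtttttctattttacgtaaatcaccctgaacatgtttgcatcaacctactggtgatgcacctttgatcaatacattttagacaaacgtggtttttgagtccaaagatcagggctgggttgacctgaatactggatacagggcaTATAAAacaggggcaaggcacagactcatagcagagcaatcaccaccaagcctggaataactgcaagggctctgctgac

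Of 13 liver genes with at least 30 counts in shFOXA2 replicate 1, 3 had at least 4 times the CPM of every other hairpin library, and over all 13691 genes with that many counts there the share was 0.453% (62 genes). In shNC replicate 1 there were 14 such genes, 0 of them among the 39, and in the other 4 hairpin libraries there were 0. The fitted log2 fold changes were 3.73 for G6PC (SE 1.83, adjusted p = 0.200) and 3.28 for ACOX2 (SE 1.69, adjusted p = 0.220), and without that library they were 0.38 (adjusted p = 0.625) and 0.08 (adjusted p = 0.933). Hepatocyte markers were raised with it in part. Of 18 plasma protein genes, 3 stood apart by the same measure: APOB with 1882 counts against at most 65 in any other hairpin library, APOA2 with 144 against at most 7 and APOA1 with 46 against at most 5. Summed over the 18 genes, the level was 191 CPM in shFOXA2 replicate 1, 29.82 and 28.96 CPM in the other shFOXA2 libraries and 30.03, 27.73 and 28.74 CPM in shNC. Most of the sum in shFOXA2 replicate 1 was APOB alone, at 157 CPM on the scale of the 6 hairpin libraries. Albumin, ALB, was not raised there, with 13, 11 and 9 counts in shFOXA2 and 19, 43 and 27 in shNC. Its log2 fold change was -1.04 (adjusted p = 0.0108 by edgeR), and the groups overlapped. FGA of the same list was called higher, with 24, 9 and 17 counts in shFOXA2 and 10, 3 and 5 in shNC. The log2 fold change of FGA was 1.82 (adjusted p = 0.00063 by edgeR), and it passed the expression filter only through the shFOXA2 libraries. TTR, FGB and APOC3 were at 0 in all 8 libraries. Of 12 fibroblast and mesenchyme markers, 4 stood apart as well (FN1, CDH2, LOX and SPARC), with COL1A2 and COL3A1 at 0 throughout. The list summed to 837 CPM in shFOXA2 replicate 1, 739 to 749 CPM in the other shFOXA2 libraries and 478 to 527 CPM in shNC. Most of each sum was VIM alone, at 665, 688 and 691 CPM in shFOXA2 and 409 to 453 CPM in shNC (scale of the 6 hairpin libraries). The part of these markers in the result was not tested.

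**Figure D3:**
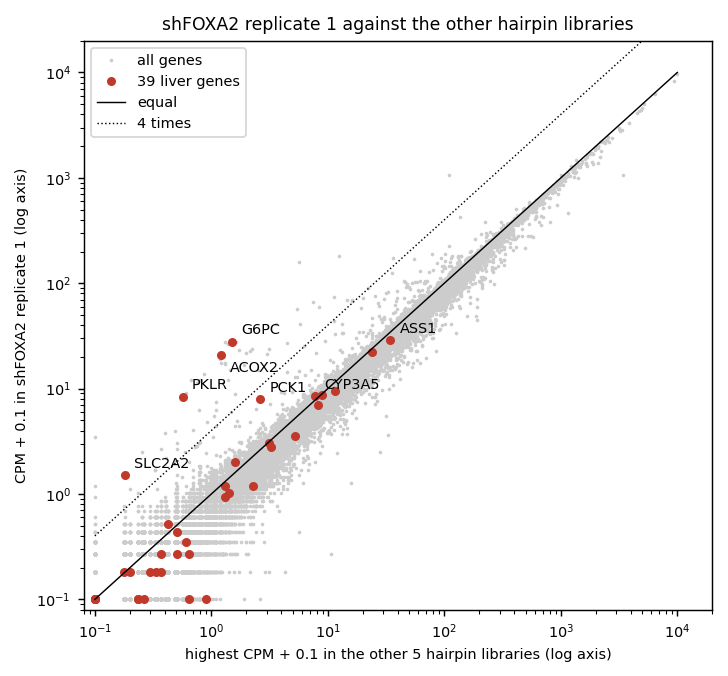
CPM in shFOXA2 replicate 1 (vertical, log axis) against the highest CPM in the other 5 hairpin libraries (horizontal, log axis), with 0.1 added, for all genes (grey) and the 39 liver genes (red). G6PC, ACOX2 and PKLR lie above the dotted line of 4 times, and ASS1 and CYP3A5 lie near the line of equality.

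PCK1, the enzyme that commits oxaloacetate to glucose synthesis, turned round with that library. It had 94, 4 and 9 counts in the shFOXA2 libraries (7.86, 0.543 and 0.901 CPM) and 31, 33 and 22 counts in shNC (2.41, 2.54 and 1.79 CPM). Replicate 1 lay above all shNC libraries and the other 2 below all of them. Across all 6 libraries the log2 fold change was 0.60 (SE 1.05, adjusted p = 0.715 by edgeR), and without shFOXA2 replicate 1 it was -1.58 (adjusted p = 0.00231). Limma-voom on all 6 libraries gave -0.21, so the sign with all libraries also turned with the tool. Of the 16 tested genes only PCK1 both changed sign and was called in that fit, ASGR1 changing sign without a call (-0.08 and 0.18). In it 35.3% of all tested genes were called (17.2% higher and 18.1% lower). FBP1, the next regulated enzyme of glucose synthesis, had 11, 0 and 3 counts in shFOXA2 and 17, 4 and 3 in shNC, too few for the test. Untreated SW620 had 142 counts of PCK1.

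**Figure D4:**
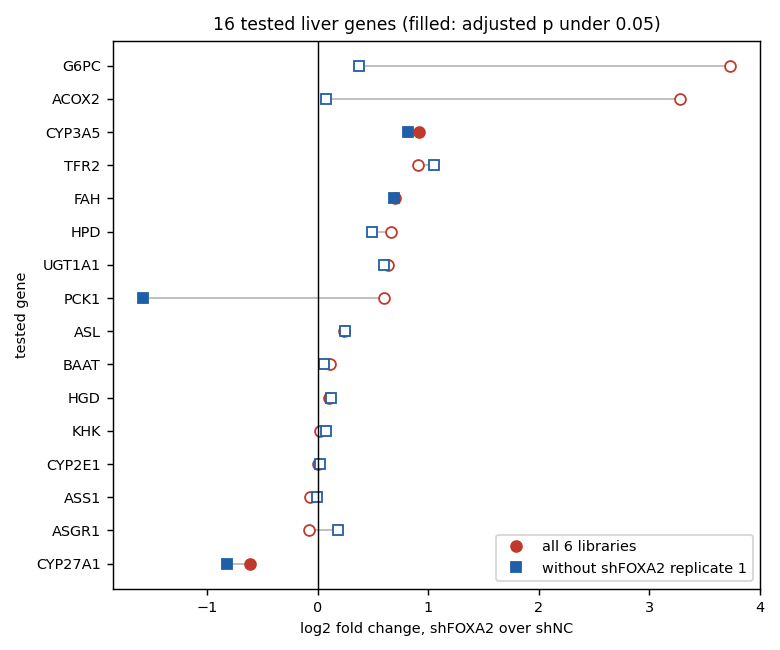
Log2 fold change of shFOXA2 over shNC for the 16 tested liver genes, with all 6 libraries (red circles) and without shFOXA2 replicate 1 (blue squares), filled where the adjusted p was under 0.05. Without that library CYP3A5 was at 0.82 and FAH at 0.69, G6PC and ACOX2 fell to 0.38 and 0.08, and PCK1 moved to -1.58.

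CYP3A5 and PCK1 carry a short stretch of the hairpin's own target sequence in an annotated 3′ untranslated region (UTR). The 7-base stretches AACACGT and ACACGTA were taken up because an earlier ranking in these same data had pointed to them. The matches are therefore not independent of the results for these genes. Whether they let the hairpin act on either transcript was not tested. GENCODE v29 on GRCh38 places the CYP3A5 match in the 3′ UTR of a shorter transcript at chr7:99663001-99663021 (minus strand) and the PCK1 match at chr20:57567560-57567580 (plus strand). Capitals mark the shared stretch, which covers both overlapping 7-base stretches in the target.
hairpin 1 target: gaacggcatgAACACGTAcat
CYP3A5: ctcaggtAACACGTcttcaag
PCK1: actgcggAACACGTtcttgac
TAT and OTC, both too low to test, hold a match too, so 4 of the 39 genes had one (10.3%). Over the 12918 tested genes with an annotated 3′ UTR the share was 5.75%. These shares are of unlike sets, since the 39 include untested genes. CYP3A5 was higher in shFOXA2, and PCK1 was lower in replicates 2 and 3 of shFOXA2. The part of these matches in either result was not tested.

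The untreated lines were set side by side, SW620 over SW480, with 1 library each and no test. Ratios are of TMM-scaled CPM, with exact 95% intervals that cover counting error only, and a gene counted as past 4-fold on log2 of CPM plus 1. Of 20 liver genes that reached 20 counts in SW620 or SW480, 1 was past 4-fold in SW620 (CYP2E1) and 2 in SW480 (UGT1A1 and ACOX2), together 15%, beside 5.21% of 21343 genes (2.21% in SW620 and 3.00% in SW480). With 0.1 CPM added, 7 were past 4-fold, beside 12% of all genes, the other 4 being PCK1 and HGD in SW620 and CPS1 and SLC2A2 in SW480. Which liver genes were read therefore differed between the lines in both directions.

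CYP2E1 had 616 counts in SW620 and 15 in SW480, 29.3-fold higher in SW620 (17.6 to 52.7). HGD had 185 counts in SW620 and 0 in SW480, at least 44.0-fold higher, and PCK1 had 142 and 0, at least 33.8-fold higher, each against a limit of 3 counts in SW480. TM4SF4, a tetraspan membrane protein of liver and gut, had 22 counts in SW620 and 0 in SW480, at least 5.23-fold higher, and CYP8B1, the sterol 12-hydroxylase that sets the type of bile acid made, had 17 and 0, at least 4.04-fold. These genes were near or at 0 in SW480, and CYP2E1, HGD and PCK1 were well above the limit in SW620. FOXA2 had 7882 counts in SW620 and 319 in SW480.

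UGT1A1 had 112 counts in SW620 and 3469 in SW480, 43.4-fold higher in SW480 (36.0 to 52.9). The genes that overlap it did the same, for example UGT1A10 with 71 counts in SW620 and 2256 in SW480. ACOX2 had 13 counts in SW620 and 485 in SW480, 52.3-fold higher in SW480 (30.3 to 98.9). SLC2A2 had 0 counts in SW620 and 61 in SW480, at least 28.5-fold higher in SW480, and CPS1 had 0 and 29, at least 13.6-fold. ACOX2 and SLC2A2, high in shFOXA2 replicate 1, were thus also higher in SW480, whereas G6PC had 0 counts in both untreated libraries and PKLR had 19 in SW620 and 5 in SW480.

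Smaller differences mostly favoured SW480. TFR2 was 3.53-fold higher in SW480 (2.80 to 4.49), ASS1 3.12-fold (2.97 to 3.27), CYP27A1 2.54-fold (2.29 to 2.83), FAH 2.12-fold (1.94 to 2.31), FBP1 2.02-fold (1.30 to 3.19), SLC10A1 1.93-fold (1.40 to 2.67) and KHK 1.68-fold (1.55 to 1.81). SLC10A1, the bile acid importer, had 69 counts in SW620 and 95 in SW480. ASGR1 was 1.46-fold higher in SW620 (1.11 to 1.96). For HPD, BAAT, TAT, CYP3A4, ARG1, HAMP, PKLR and CYP4F2, a fatty acid and vitamin K hydroxylase, the interval of the ratio included 1. ADH1A, an alcohol dehydrogenase, had 9 counts in SW620 and 0 in SW480, and ASGR2 had 4 and 10.

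**Figure D5:**
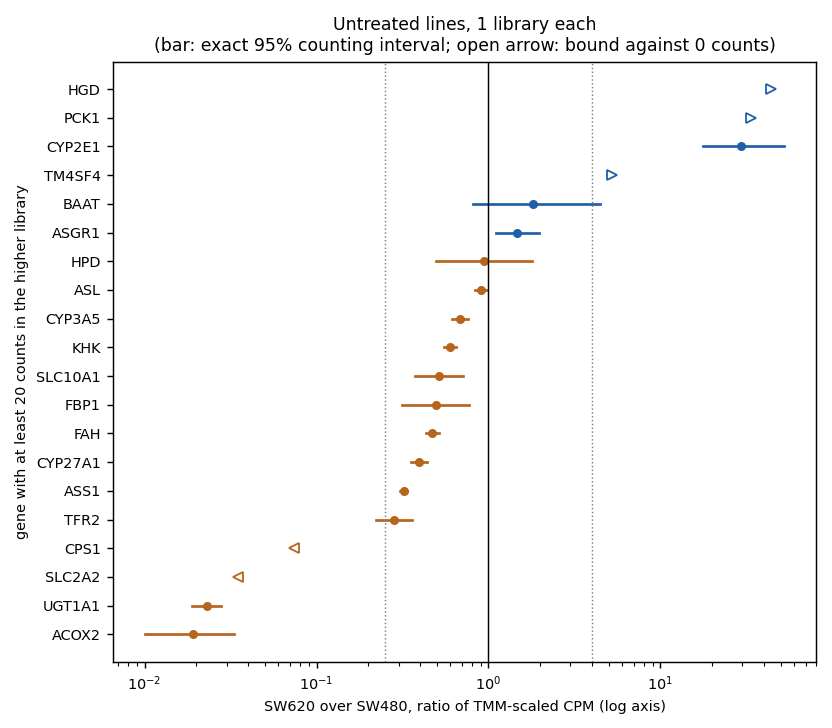
Ratio of TMM-scaled CPM, SW620 over SW480 (log axis), for the 20 liver genes that reached 20 counts in SW620 or SW480. Points with bars are ratios with exact 95% counting intervals, open arrows are bounds against 0 counts, and dotted lines mark 4-fold. HGD, PCK1 and CYP2E1 lie far to the right, and ACOX2, UGT1A1 and SLC2A2 far to the left.

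The genes that differed most in one comparison were set beside their values in the other. CYP2E1 and HGD, high in SW620, had hairpin log2 fold changes of 0.00 and 0.11, neither called. CYP3A5 and FAH, called higher in shFOXA2, were 1.46-fold and 2.12-fold higher in SW480. CYP27A1, called lower in shFOXA2, was also higher in SW480. SW480 is the line with fewer FOXA2 counts. The part of FOXA2 in these differences was not tested.

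Genes of the same pathways outside the 39 were taken from 9 lists. Of 113 tested, 20 were higher and 29 lower in shFOXA2 (49 in all), beside the 39% of all tested genes. In the urea cycle and arginine list, 2 of 9 were higher and 3 lower (2 and 4 without shFOXA2 replicate 1). The mitochondrial carriers of ornithine and of aspartate, SLC25A15 and SLC25A13, rose by 0.62 and 0.38 on the log2 scale (adjusted p = 3.76e-06 and 1.54e-08 by edgeR), and the ornithine aminotransferase OAT fell by 0.23 (4.17e-05). Among other amino acid breakdown genes, 2 of 13 were higher and 6 lower (2 and 4 without shFOXA2 replicate 1), with AASS of lysine breakdown higher (1.11) and proline dehydrogenase PRODH (-1.09) and AFMID of tryptophan breakdown (-0.61) lower. Among other glucose genes 0 of 8 were higher and 2 lower, and without shFOXA2 replicate 1 the counts were 2 higher and 2 lower. The lower ones with all libraries were the mitochondrial PCK2 (-0.28) and the glucose 6-phosphate carrier SLC37A4 (-0.22).

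In the bile acid and nuclear receptor list, 2 of 12 were higher and 2 lower (2 and 3 of 13 tested without shFOXA2 replicate 1). FGF19, the gut hormone that represses bile acid synthesis in liver, had 242 CPM in shFOXA2 and 171 CPM in shNC (log2 fold change 0.50, adjusted p = 7.08e-13 by edgeR), while the racemase AMACR (-0.77) and the retinoid X receptor RXRA (-0.62) fell. Among other P450 genes 2 of 15 were higher and 2 lower, with the xenobiotic receptor AHR (0.26) higher and CYP2S1 (-0.47) and the vitamin D 25-hydroxylase CYP2R1 (-0.54) lower. Among conjugation genes 3 of 16 were higher and 3 lower (3 and 2 without shFOXA2 replicate 1). With all libraries these included the epoxide hydrolase EPHX1 (0.34) and the glutathione transferases GSTM3 (-1.36) and GSTP1 (-0.14). Among alcohol and aldehyde dehydrogenases 2 of 15 were higher and 5 lower, including ALDH9A1 (0.32), ALDH7A1 (-0.34) and the aldose reductase AKR1B1 (-0.29).

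Uptake carriers had 3 of 8 higher and 2 lower. The glucose carriers SLC2A1 (0.69) and SLC2A3 (1.78) and the organic anion carrier SLCO2B1 (1.87) rose, SLCO2B1 to 5.55 CPM in shFOXA2, against 1.53 CPM in shNC. Its liver relative SLCO1B1 was at 0 throughout. In the iron list 4 of 17 were higher and 4 lower (4 and 5 without shFOXA2 replicate 1). The transferrin receptor TFRC had 437 CPM in shFOXA2 and 693 CPM in shNC (log2 fold change -0.67, adjusted p = 3.06e-17 by edgeR), ferritin light chain FTL fell by 0.29, and SMAD7, an inhibitor of the BMP signal that drives hepcidin, rose by 1.13. The median log2 fold changes of the 9 lists lay between -0.17 and 0.21.

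Between the untreated lines, these lists held genes with far larger differences. The aldo-keto reductase AKR1C3 had 2879 counts in SW620 and 1 in SW480, and AKR1B1 had 3343 and 15 (159-fold higher in SW620). PRODH was 28.2-fold higher in SW620 and ID1, a target of BMP signalling, 26.7-fold. SLC2A3 was 26.2-fold higher in SW480, with 5945 counts in SW620 and 111009 in SW480, and CYP2U1 was 16.7-fold higher in SW480. NAGS, which makes the activator of CPS1, was 9.55-fold higher in SW480, the line that also held the 29 counts of CPS1.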

How the data were processed

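Total RNA of 8 cell line libraries was sequenced after a directional kit, per the labels' protocols. Each deposited table gives raw counts, a length and RPKM per gene. The authors' deposited RPKM values equal the count scaled by length and table total for 100% of genes above 20 counts (tolerance 0.001). The submitters' processing notes name HOMER and hg19 without a role. The sources used here give no aligner, annotation or use of strand. Exons of 11 of the liver genes overlap an opposite-strand gene, and their reads cannot be told from it if strand was not used. These 11 are CYP2C19, CYP2E1, CYP8B1, PKLR, TAT, HPD, FBP1, KHK, ADH1A, ADH6 and BAAT. Exons of 4 liver genes (CYP2C19, ASL, UGT1A1 and SLCO1B1) overlap a same-strand gene, where strand would not tell the reads apart. ACKR2, which overlaps CYP8B1, had 139 counts in SW620 and 2 in SW480. HCN3, which overlaps PKLR, had 1417 and 1168, and PCAT7, which overlaps FBP1, had 225 and 143. CGREF1, which overlaps KHK, had 2861 and 4287, and SYCE1, which overlaps CYP2E1, had 27 and 2.

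The row with the highest summed count stood for each of 256 repeated symbols. Counts were tested with edgeR 4.0.16 (robust quasi-likelihood, TMM, default filter, two-sided, adjusted p under 0.05) in R 4.3.3. The SE is the log2 fold change divided by the square root of F. CPM of hairpin libraries uses TMM over those 6 libraries, and that of untreated libraries and marker sums uses TMM over all 8. Alternatives used DESeq2 1.42.0 and limma 3.58.1. The test was tried on simulated data. Plots and sequence searches used Python 3.11.15 and matplotlib 3.10.9.

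The members and lists were chosen with earlier results of these data known. Named are all 39 members and, per pathway list, up to 3 called genes by p and up to 2 past 4-fold between the lines. Gene places came from GENCODE v29 on GRCh38, another build than in the submitters' notes.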

Additional observations from a re-analysis of the deposited data

How the results depend on the processing

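CYP3A5 and FAH kept their call and direction under every alternative fitted. The number of the 39 genes called in the hairpin comparison was 4, fell to 2 with the DESeq2 Wald test and to 2 with limma-voom (CYP3A5 and FAH in both), and was 2 to 4 with a library left out. The log2 fold change of PCK1 ran from -1.58 to 1.04 over those fits, was -1.58 only without shFOXA2 replicate 1, and was -0.21 with limma-voom. The cause was not tested. CYP2E1, HGD, KHK, BAAT and ASGR1, called in no fit, lay close to 0 and changed sign: with a library left out their log2 fold changes ran from -0.133 to 0.094 for CYP2E1, -0.045 to 0.193 for HGD, -0.094 to 0.081 for KHK, -0.070 to 0.263 for BAAT and -0.290 to 0.183 for ASGR1. CYP2E1 was also at -0.011 with total counts, -0.029 without the filter and -0.002 with a replicate block, and KHK at -0.007 without the filter. ASL also lost its call with total counts (adjusted p = 0.0604) and without the expression filter (adjusted p = 0.122). Without the filter SLC2A2 was called higher (2.60, adjusted p = 0.0169), on 17 counts in shFOXA2 replicate 1, 0 in the other shFOXA2 libraries and 1 in each shNC library. Same-numbered hairpin libraries did not deviate together (correlations -0.047 to -0.0044), so the numbers were not taken as pairs. With a replicate block, 6139 genes were called in all, and 3 of the 39, CYP27A1 dropping out (adjusted p = 0.0610). Between the lines, 3 genes were past 4-fold, 7 with 0.1 CPM added and 9 past 2-fold, and the cause was not tested. With silent defined as under 0.1 RPKM in each library, 12 genes were silent in place of 8. Depth limits the 23 genes that were silent or too low to test.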

Other observations

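Apart from the 39, 59 genes had at least 4 times the CPM of every other hairpin library in shFOXA2 replicate 1. The highest counts among them were of the metallothionein MT2A (12635 counts in shFOXA2 replicate 1, at most 1432 in the other hairpin libraries), the mitophagy receptor BNIP3 (2156, at most 124), the cytokine signalling inhibitor SOCS3 (2082, at most 462) and APOB. Others, picked after their values were seen, were CTGF with 887 counts, the retinol carrier RBP4 with 228, the aminopeptidase ANPEP with 262 and the imprinted gene DLK1 with 40, the last at 0 counts in the other 7 libraries. Summed, the 59 genes had 33475 counts in shFOXA2 replicate 1, of which MT2A gave 12635. Before TMM scaling the sum was 2781 CPM there, 234 and 275 CPM in the other shFOXA2 libraries, 211 to 256 CPM in shNC, 187.5 CPM in SW620 and 599 CPM in SW480.

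G6PC and APOB were at 0 counts in both untreated libraries, the deepest of the series, and were read in all 6 hairpin libraries. Per 100 counts of APOB, G6PC had 17.6 counts in shFOXA2 replicate 1, 9.76 and 25.9 in replicates 2 and 3, and 14.9, 15.4 and 21.3 in the shNC libraries, and ACOX2 had 13.1, 9.76 and 20.4 in shFOXA2 and 19.1, 16.9 and 18.0 in shNC. These ratios rest on 4 to 14 counts of G6PC and 4 to 11 of ACOX2 in the 5 libraries other than shFOXA2 replicate 1. PCK1, which untreated SW620 also held, had 5.00, 9.76 and 16.7 counts per 100 of APOB in shFOXA2 and 66.0, 50.8 and 36.1 in shNC.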
